A study of Arabidopsis thaliana with 21 samples.

Results

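Root transcripts at the end of parabola 10 were compared with those at the very start of parabola 1 on a C-9 aircraft, which flies arcs of alternating increased and near-zero gravity. The comparison uses 6 of the 21 arrays of the flight, 3 for each stage, chosen by their titles. It covers the 16722 probe sets that the platform annotation pairs with exactly 1 gene, of 38408 on the array. All arrays hold whole roots of wild-type Arabidopsis thaliana of the Wassilewskija (WS) cultivar, aged 12 days and grown in continuous light. In the first group, seedlings were fixed after the aircraft had completed parabola 10. In the second, they were fixed as parabola 1 began, and neither group carried a mutation or received a chemical treatment other than the fixative RNAlater. The 5 other tubes of the flight were fixed in level flight 1 min before the parabolas began, after parabolas 1 and 3, and midway through parabola 1 in a pair of tubes called A and B.

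The 3 arrays of a stage are root pools from a single Kennedy Space Center Fixation Tube, a hand-operated device that floods seedlings with fixative. Stage and tube therefore cannot be told apart. Each p-value rests on how much pools from the same tube varied, estimated over all 7 tubes of the flight. In whole roots, fewer cells of a type and less RNA per cell cannot be told apart either. "Rose" and "fell" below mean higher or lower at parabola 10 end than at parabola 1 start with an adjusted p under 0.05, in different plants.

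Roots sense gravity through starch-filled plastids that sediment in the cells of the root cap, and auxin moving to the lower flank then slows growth there. Mechanical stimulation acts within minutes through calcium, and calmodulin-like proteins and zinc finger factors are among the first genes to respond. Roots kept from their sugar supply break down amino acids, organic acids and cell contents for energy, and roots that meet reactive or foreign compounds raise enzymes that reduce them or attach sugars to them.

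The values are log2 levels per probe set, so a difference of 1 is a factor of 2. Array medians lay between 2.92 and 3.04, and levels below the median of the table (2.98) in both groups are called dim. Array-to-array correlations over the named probe sets were 0.992 to 0.994 within parabola 10 end, 0.991 to 0.993 within parabola 1 start and 0.986 to 0.990 between them. Of the root markers looked for, only the root hair expansins EXPA7 and EXPA18 were measured. Their differences were -0.25 and -0.50, and neither passed. Markers of endodermis, root cap, xylem, phloem and meristem were not analysed here.

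Of the 16722 probe sets, 451 passed (2.7%), each for a different gene. Of these, 263 rose (1.57%) and 188 fell (1.12%). The rises were the larger changes: 60 rises and 20 falls were at least 2-fold, and the median change was 0.70 among the rises and -0.66 among the falls. The median difference of all probe sets was -0.01. The 3 arrays of one stage lay clear of the 3 of the other for 450 of the 451, and for 20.4% of all probe sets. Only 20 of the 451 were dim in both groups, 8 that rose and 12 that fell, although 8196 of the 16722 were dim. The shares over all probe sets given below are therefore lower than those among brighter probe sets, and lists with few dim members are set beside them. No plastid-encoded gene passed, and the share that passed lay between 2.4% on chromosome 3 and 3.12% on chromosome 4.

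**Figure D1:**
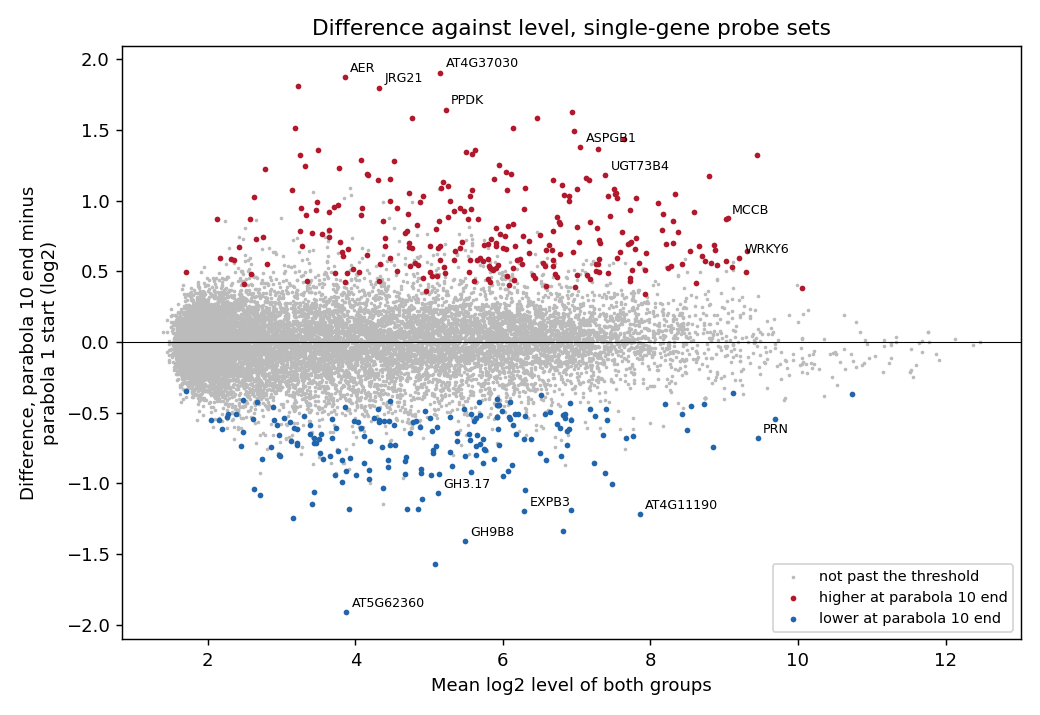
Each point is 1 single-gene probe set. The x axis is its mean log2 level over parabola 10 end and parabola 1 start, and the y axis is the log2 difference, parabola 10 end minus parabola 1 start. The 263 that rose are red and the 188 that fell are blue, and the extremes are 1.90 (AT4G37030) and -1.91 (AT5G62360). Only 20 of the 451 were dim in both groups, as were 8196 of the 16722.

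The count depended on single arrays. Replicate 2 of parabola 10 end was the highest of its 3 arrays for 148 of the 263 genes that rose and the lowest for 111 of the 188 that fell. Without it, 186 probe sets passed. Without replicate 1 of parabola 10 end 292 passed, and without replicate 3 it was 321. Leaving out replicates 1, 2 and 3 of parabola 1 start gave 286, 204 and 287. A core of 144 genes, 99 that rose and 45 that fell, passed in all 6 of these fits. When the tube was taken as a random block, 57 passed (36 higher, 21 lower; 0.341% of those tested), and all 57 are among the 451.

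The largest rise was AT4G37030, a gene the annotation gives no other name. It had 6.38, 5.78 and 6.15 at parabola 10 end, against 4.20, 3.96 and 4.45 at parabola 1 start. The groups were far apart, with a difference of 1.90 (SE 0.24, 3.74-fold, limma adjusted p = 0.000396). AER encodes alkenal reductase, which removes reactive carbonyls formed from oxidised lipids. AER had 4.92, 4.85 and 4.60 at parabola 10 end, against 2.89, 2.96 and 2.91 at parabola 1 start. All 3 later arrays lay well above the earlier ones, with a difference of 1.87 (SE 0.25, limma adjusted p = 0.000483). Both genes also passed with the tube block.

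JRG21 encodes an oxygenase that hydroxylates jasmonic acid and so inactivates it. It had 5.33, 5.29 and 5.05 at parabola 10 end, against 3.63, 3.21 and 3.43 at parabola 1 start. No values overlapped, and the difference of 1.80 had an SE of 0.18 (limma adjusted p = 3.42e-05). BGLU28, a beta-glucosidase gene, had 4.44, 2.88 and 5.07 at parabola 10 end, against 2.21, 2.35 and 2.40 at parabola 1 start. Its later arrays were uneven, with replicate 2 close to the earlier ones. The difference was 1.81 (adjusted p = 0.00965), and it was 1.34 without replicate 3 of parabola 10 end, where it no longer passed (adjusted p = 0.0601).

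The other members of the 15 largest rises were PPDK, SWEET2, ASPGB1 and AT1G21400, described with carbon metabolism below, NHL25 (1.51), a relative of the defence gene NDR1, and 6 genes named only by locus: AT5G22140 (1.62), AT5G49690 (1.51), AT5G52050 (1.49), AT4G01870 (1.44), AT2G29500 (1.37) and AT1G71520 (1.36). Arrays that do not overlap between the stages were a condition for entering these 15. CCOAMT (1.29), a methyltransferase gene of the phenylpropanoid pathway, and DREB2C (1.25), an AP2/ERF transcription factor of the heat response, rose as well. DREB2C was the only measured gene of the AP2/ERF list. AP2/ERF genes that the list did not match, as can happen for genes named only by locus, were not counted. CCOAMT and the other genes named below that are outside the 30 largest changes and the gene lists were chosen after their values were seen.

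**Figure D2:**
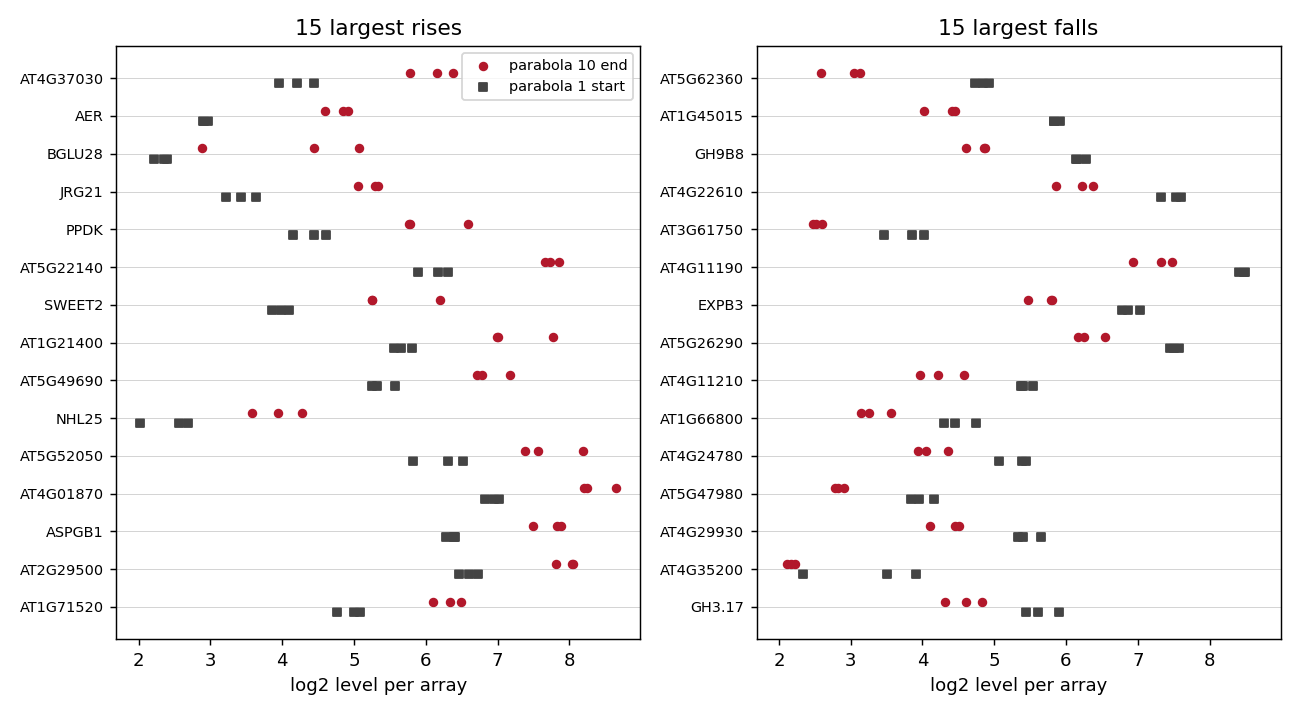
Log2 level on each array (x axis) of the 15 largest rises (left) and the 15 largest falls (right). Red circles are the 3 arrays of parabola 10 end and dark squares the 3 of parabola 1 start. Symbols of the stages that do not overlap were a condition for being shown, and the spread is widest for BGLU28 at parabola 10 end and AT4G35200 at parabola 1 start.

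UDP-glycosyltransferases are enzymes that attach sugars to hormones, defence compounds and foreign molecules. Of the 55 measured genes of their list, 10 rose and none fell, where 1.57% of all probe sets rose. Members of the family that the list did not match, as can happen for genes named only by locus, were not counted. With the tube block 2 of the 10 passed, UGT73B4 (adjusted p = 0.0408) and UGT73B2 (adjusted p = 0.0249), and the other 8 had adjusted p between 0.0559 and 0.25. The median of the 55 was 0.08, beside -0.01 for all probe sets, so most of the 55 sat near 0. All 5 measured genes of UGT73B, a subfamily singled out after values were seen, rose. UGT73B4 had 8.07, 8.02 and 7.85 at parabola 10 end, against 6.84, 6.60 and 6.96 at parabola 1 start, a difference of 1.18 (SE 0.19, limma adjusted p = 0.00158). UGT73B5 differed by 1.15, UGT73B3 by 1.02, UGT73B2 by 1.00 and UGT73B1 by 0.70. The later arrays of each were all above the earlier ones.

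In the reference annotation (TAIR10.1), UGT73B5 and UGT73B4 are neighbours on chromosome 2, and UGT73B3, UGT73B2 and UGT73B1 stand in a row on chromosome 4. They are close relatives, and binding of one gene's transcripts to another's probes was not tested. UGT76B1, whose enzyme glucosylates isoleucic acid and salicylic acid, differed by 0.93 (adjusted p = 0.00263). UGT89B1 (0.67) and UGT87A2 (0.56) rose as well. UGT76E11 (0.67) and UGT76E12 (0.58) passed as dim probe sets, and the second probe set of UGT76E12 gave 0.10. The number that rose in the list was 5 without replicate 2 of parabola 10 end and 6 without replicate 1 of parabola 1 start.

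**Figure D3:**
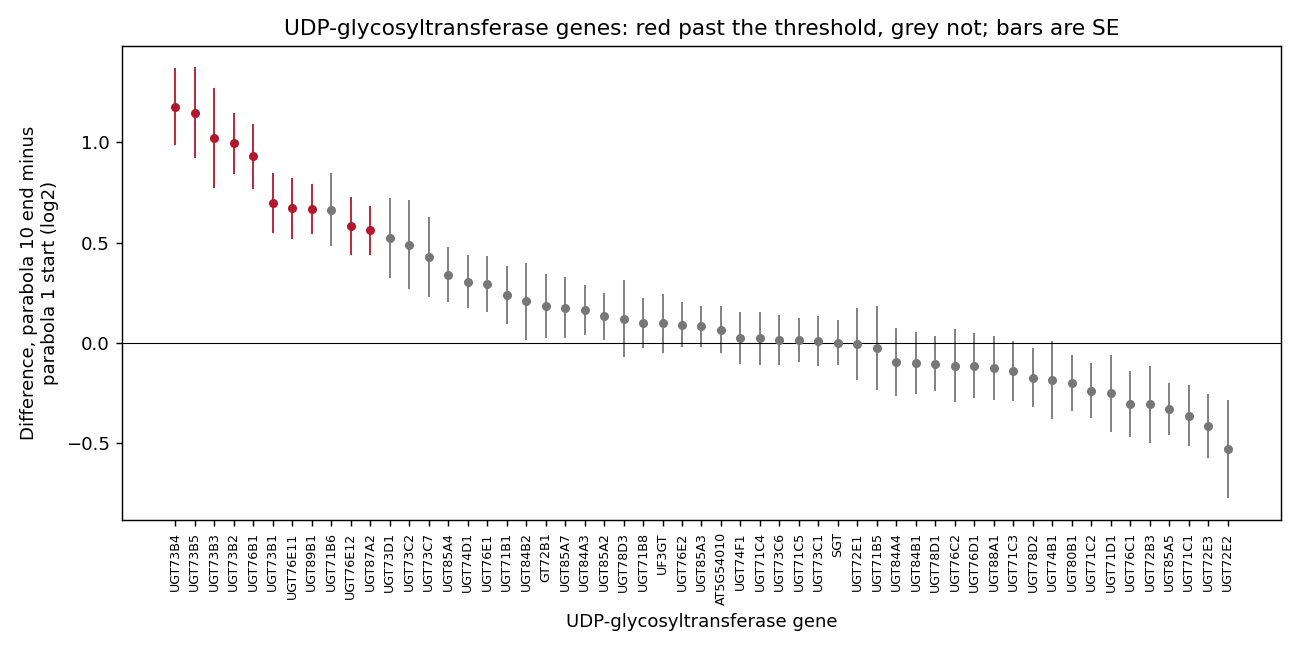
Log2 difference, parabola 10 end minus parabola 1 start, of the 55 measured genes of the UDP-glycosyltransferase list, sorted from the highest. Points are differences, bars are SE from the limma fit, red marks the 10 past the threshold. The 5 UGT73B genes lie among the first 6 and the lowest is UGT72E2 at -0.53.

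Within their lists, other enzymes of detoxification gave single calls. GSTU25, a glutathione transferase gene, had a difference of 1.00 (adjusted p = 0.0488), the only call among 14 measured genes of its list, and the median of the 14 was -0.12. It did not pass when any of the 6 arrays was left out. CYP71B6 was the only call among 24 measured genes of the cytochrome P450 list (0.53, adjusted p = 0.0107). Over all probe sets 1.57% rose, the share to set beside both counts. Of the 24, 19 were dim and most belonged to the CYP71B subfamily, so other cytochrome P450 genes were hardly covered. FMO, a flavin-containing monooxygenase gene, rose by 0.70 and also passed with the tube block. AT5G52050 was the only measured gene of the list of ABC and MATE transporters, and transporters that the list did not match were not counted.

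Among 8 measured genes of the carbon starvation list, 4 rose, none fell, and all 8 differences were above 0 (median 0.67), where 1.57% of all probe sets rose. This list, like the other lists, was chosen with earlier results of these data known, so its count is not independent of them. With the tube block none of the 4 passed, with adjusted p of 0.0604 for PPDK, 0.0685 for AT1G21400, 0.149 for MCCB and 0.235 for ETFQO. PPDK encodes pyruvate orthophosphate dikinase, which makes the precursor of sugar synthesis from pyruvate. It had 5.78, 6.59 and 5.77 at parabola 10 end, against 4.16, 4.60 and 4.45 at parabola 1 start (difference 1.64, SE 0.29, limma adjusted p = 0.00296). AT1G21400, part of the dehydrogenase complex for branched-chain keto acids, had 6.99, 7.77 and 7.01 at parabola 10 end, against 5.81, 5.55 and 5.66 at parabola 1 start (difference 1.58, adjusted p = 0.00352). In both genes the groups were separate and replicate 2 of parabola 10 end was the highest array.

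MCCB and ETFQO act further along the breakdown of branched-chain amino acids, as a carboxylase subunit for leucine and as the oxidoreductase that passes electrons to ubiquinone. MCCB differed by 0.87 (adjusted p = 0.0117) and ETFQO by 0.70 (adjusted p = 0.0254). Without replicate 2 of parabola 10 end, MCCB was at 0.74 (adjusted p = 0.0895) and ETFQO at 0.55 (adjusted p = 0.189), so that 2 of the 8 genes passed. Also 2 passed without replicate 2 of parabola 1 start. The list members that did not pass were ATL8 (0.65), AKINBETA1 (0.41), AMY1 (0.19) and D2HGDH (0.17).

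The next genes stand in no list. ASPGB1, one of the 15 largest rises, encodes an asparaginase, which frees ammonia from the nitrogen store asparagine. It had 7.83, 7.89 and 7.50 at parabola 10 end, against 6.28, 6.39 and 6.41 at parabola 1 start (difference 1.38, SE 0.20, limma adjusted p = 0.000613), with no overlap. The others were chosen after their values were seen. DELTA-OAT, ornithine aminotransferase, rose by 0.85, FDH, formate dehydrogenase, by 0.86, and ALDH6B2, the aldehyde dehydrogenase of valine breakdown, by 0.56. ICL, isocitrate lyase of the glyoxylate cycle, rose by 1.14 (adjusted p = 0.0256). ASPGB1 and DELTA-OAT passed with the tube block, while FDH, ALDH6B2 and ICL did not (adjusted p = 0.052, 0.119 and 0.236). ALDH6B2 and ALDH7B4 (0.38) were the calls among 8 measured aldehyde dehydrogenase genes, beside 1.57% rises over all probe sets.

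Sugar transporters of the SWEET family moved in both directions. SWEET2 had 5.25, 6.20 and 5.25 at parabola 10 end, against 3.99, 3.85 and 4.10 at parabola 1 start (difference 1.58, limma adjusted p = 0.00198). SWEET17 and SWEET16, which carry sugars across the vacuole membrane, fell by 0.84 and 0.61. Every later array of these 3 genes was clear of the earlier ones, and with the tube block SWEET2 passed (adjusted p = 0.0469), while SWEET17 and SWEET16 did not (adjusted p = 0.157 and 0.191). Of the 14 measured members 1 rose and 2 fell, beside 1.57% and 1.12% of all probe sets. The family was counted after values were seen, and the median of the 14 was -0.09.

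Among 11 autophagy genes 1 rose, beside 1.57% of all probe sets. ATG8H, a small protein that coats the forming autophagosome, rose by 0.89 (adjusted p = 0.00233, and 0.052 with the tube block). It had 7.93, 8.05 and 7.72 at parabola 10 end, against 7.10, 6.94 and 7.01 at parabola 1 start. Of the 11 differences, 10 were above 0, with a median of 0.16. ATG8E had a value of 0.52 (adjusted p = 0.0859).

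Of 6 jasmonate genes, 2 rose and none fell, beside 1.57% rises over all probe sets: JRG21 and AT2G38240 (0.79, adjusted p = 0.0141). JRG21 passed with the tube block (adjusted p = 0.00251) and AT2G38240 did not (adjusted p = 0.166). AT2G38240 also did not pass without replicate 1 or 2 of parabola 10 end (adjusted p = 0.0509 and 0.106) or replicate 1 of parabola 1 start (adjusted p = 0.0795). Of the enzymes of jasmonate formation and methylation measured, OPCL1 had a value of 0.05 and JMT of 0.09. Of 7 touch and rapid stress genes, 2 rose and none fell, with a list median of 0.46, beside 1.57% rises over all probe sets. Neither passed with the tube block, with adjusted p of 0.127 for CML38 and 0.32 for STZ. CML38, a calmodulin-like protein, had 4.39, 4.29 and 4.06 at parabola 10 end, against 3.29, 3.38 and 3.16 at parabola 1 start (difference 0.97, adjusted p = 0.00897). STZ, a zinc finger repressor of stress responses, had 7.95, 7.94 and 7.82 at parabola 10 end, against 7.21, 7.34 and 7.27 at parabola 1 start (0.63, adjusted p = 0.0423). Neither gene's arrays overlapped, and STZ did not pass when any of the 6 arrays was left out, nor with cyclic loess (adjusted p = 0.0506) or over all probe sets (adjusted p = 0.0738). The values that missed the threshold were AT1G76640, or CML39 (0.60, adjusted p = 0.385), WRKY22 (0.46), the dim CML37 (0.43), CML42 (-0.08) and EXO (-0.15). Among 7 calcium sensor genes, CML38 was the only call, beside 1.57% rises over all probe sets.

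GRX480, a glutaredoxin known as a partner of TGA factors, had 5.66, 5.98 and 5.38 at parabola 10 end, against 4.72, 4.52 and 4.54 at parabola 1 start. The arrays did not overlap, but the difference of 1.08 had an SE of 0.33 and did not pass (adjusted p = 0.0875). None of the 4 defence genes, which include GRX480, passed. WRKY6 (0.59, adjusted p = 0.00242), a transcription factor of phosphate supply and senescence, was the only call among 7 WRKY genes. Over all probe sets 1.57% rose. WRKY6 did not pass with the tube block (adjusted p = 0.0533).

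The mitochondrial dysfunction list, genes known to rise when the respiratory chain is blocked, had 3 rises and no fall among 11 measured members (median 0.13), where 1.57% of all probe sets rose. None of the 3 passed with the tube block, with adjusted p of 0.122 for AT2G21640, 0.208 for AT5G51440 and 0.223 for AT5G14730. AT2G21640, a marker of oxidative stress, differed by 0.95 (adjusted p = 0.00848), AT5G51440 by 1.00 and AT5G14730 by 0.90. AT2G41730 had the highest value of the list, 1.28, with an SE of 0.44, and did not pass (adjusted p = 0.149). AT2G21640 had 4.15, 3.21 and 3.86 at parabola 10 end, against 2.60, 3.07 and 2.70 at parabola 1 start. Its replicate 2 at parabola 10 end lay just above the highest earlier array. Without replicate 1 of parabola 10 end none of the list passed, and without replicate 2 of parabola 10 end or replicate 1 of parabola 1 start 1 passed.

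Of 22 hypoxia-responsive genes, 2 rose and none fell: CML38, which stands in this list too, and AT4G24110 (0.87, adjusted p = 0.000613). Over all probe sets 1.57% rose. AT4G24110 passed with the tube block (adjusted p = 0.0214) and CML38 did not (adjusted p = 0.127). The median was 0.27 and 8 of the 22 were dim. AT3G10040, the hypoxia regulator HRA1, was dim with 2.54, 2.30 and 3.30 at parabola 10 end, against 2.47, 2.02 and 2.14 at parabola 1 start. Those values overlapped (difference 0.51, adjusted p = 0.167). None of the 4 measured members of the heat shock list passed. Heat shock genes that the list did not match, as can happen for genes named only by locus, were not counted. The 4 members therefore do not stand for all heat shock genes. Fes1A, a cofactor of HSP70 chaperones in heat and outside the list, rose by 0.83 (adjusted p = 0.00574).

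GI encodes GIGANTEA, a clock protein that links the circadian clock to flowering. It had 5.93, 5.49 and 5.68 at parabola 10 end, against 4.76, 4.88 and 4.81 at parabola 1 start. The later arrays were clearly higher, with a difference of 0.89 (SE 0.14, limma adjusted p = 0.0014), and GI passed in all 6 fits without 1 array and with the tube block. The other measured clock genes, AT4G33980 (0.22) and the dim COR27 (0.33), did not pass. GID1B, a gibberellin receptor, rose by 0.65 and PYE, a regulator of the iron deficiency response, by 0.67.

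The largest fall was AT5G62360, of the pectin methylesterase inhibitor family, whose members keep pectin in the wall methylated. It had 3.04, 3.13 and 2.58 at parabola 10 end, against 4.73, 4.84 and 4.92 at parabola 1 start. The level at parabola 10 end was 26.6% of that at parabola 1 start, a difference of -1.91 (SE 0.25, limma adjusted p = 0.00047). Its neighbour on chromosome 5, AT5G62350, fell by 0.66. A further pectin-modifying gene, AT4G24780, had 3.93, 4.35 and 4.06 at parabola 10 end, against 5.06, 5.39 and 5.44 at parabola 1 start (-1.18, adjusted p = 0.0014). Both AT5G62360 and AT4G24780 were without overlap and passed with the tube block. The 3 members of the pectin list were others, all dim, and none passed.

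GH9B8 belongs to the glycosyl hydrolases of family 9, which cut glucan chains of the wall. It had 4.88, 4.61 and 4.86 at parabola 10 end, against 6.27, 6.16 and 6.14 at parabola 1 start. The groups were far apart, at 37.6% of the earlier level (-1.41, SE 0.17, limma adjusted p = 0.000396). GH9B8 and GH9C2 (-0.68) were the calls among 19 measured genes of the family, beside 1.12% falls over all probe sets. The family was counted after values were seen, and the median of the 19 was -0.07. GH9B8 passed with the tube block (adjusted p = 0.0176) and GH9C2 did not (adjusted p = 0.157).

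Of 42 genes of expansins, XTH enzymes and wall synthesis, 3 fell and 1 rose, and 29 of the 42 differences were below 0 (median -0.22, beside -0.01 for all probe sets, of which 1.12% fell and 1.57% rose). With the tube block none of the 4 passed, with adjusted p of 0.0939 for EXPB3, 0.093 for XTH32, 0.278 for XTH33 and 0.255 for CSLD2. EXPB3, a beta-expansin that loosens walls, had 5.80, 5.47 and 5.80 at parabola 10 end, against 6.86, 7.03 and 6.78 at parabola 1 start (-1.20, SE 0.23, adjusted p = 0.00582). XTH32 and XTH33 encode enzymes that cut and rejoin xyloglucan. XTH32 had 3.27, 3.25 and 3.24 at parabola 10 end, against 4.13, 4.32 and 4.12 at parabola 1 start (-0.94, adjusted p = 0.00574). XTH33 fell by 0.74 to below the table's median (adjusted p = 0.0336). The 1 rise was CSLD2, a cellulose synthase-like gene of tip growth (0.50, adjusted p = 0.0291).

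EXPA15 (-0.74, adjusted p = 0.0782) and EXPA4 (-0.66, adjusted p = 0.067) had similar values and did not pass. EXPA20 gave -0.13 from its brighter probe set, which did not pass, and -0.57 from the other, which did. Each of the leave-one-out fits without replicate 1 or 2 of either stage gave 2 calls in this list. Root hairs express both CSLD2 and the markers EXPA7 and EXPA18, whose values were given above. The TBL genes are a family that adds acetyl groups to wall polysaccharides, counted after values were seen. They had 3 falls among 23, beside 1.12% over all probe sets: TBL25 (-0.77), TBL33 (-0.61) and TBL24 (-0.56). These 3 did not pass with the tube block (adjusted p = 0.059, 0.264 and 0.207). COB, which orients cellulose microfibrils, fell by 0.44, the microtubule gene TUB7 by 0.56 and the microtubule-associated protein gene ATMAP65-6 by 0.62.

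**Figure D4:**
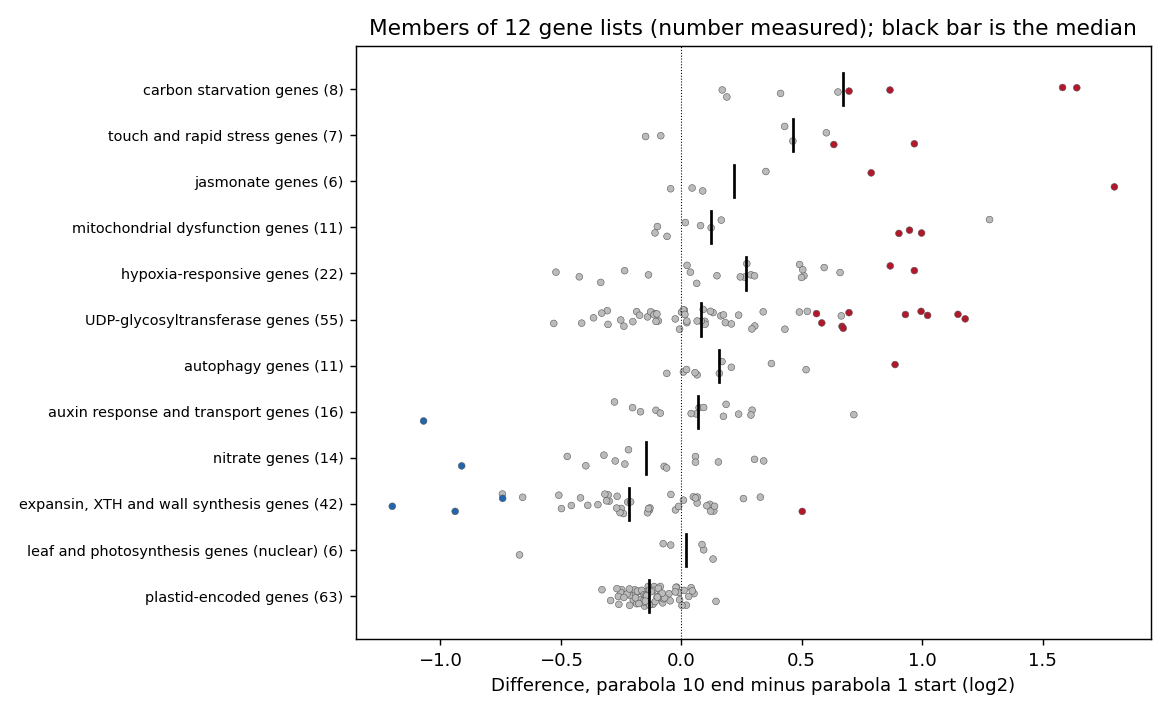
Log2 difference, parabola 10 end minus parabola 1 start (x axis), of every measured member of 12 gene lists. Red points rose, blue points fell, grey points did not pass, black bars are list medians, and vertical scatter has no meaning. The carbon starvation list has its median at 0.67 with all 8 members above 0, and the wall list has its median at -0.22.

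Auxin genes gave 1 fall and no rise among 16, beside 1.12% falls and 1.57% rises over all probe sets. GH3.17, which conjugates auxin to glutamate, had 4.83, 4.31 and 4.61 at parabola 10 end, against 5.61, 5.91 and 5.45 at parabola 1 start (-1.07, SE 0.20, adjusted p = 0.00375, and 0.0707 with the tube block). GH3.3, which conjugates auxin to aspartate, had the highest value of the list, 0.72, and did not pass (adjusted p = 0.0943). Of 2 gravitropism genes, AT1G72490 had a value of 0.72 (adjusted p = 0.0879) and AT1G17400 of -0.10.

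NAXT1, a nitrate efflux transporter, fell by 0.91 (adjusted p = 0.0111). Among 14 nitrate genes (median -0.14) it was the only call, beside 1.12% falls over all probe sets. It had 5.73, 5.41 and 5.70 at parabola 10 end, against 6.39, 6.66 and 6.52 at parabola 1 start, with no overlap, and did not pass with the tube block (adjusted p = 0.145). AT3G45700, a nitrate/peptide transporter family gene, and its neighbour AT3G45710 fell by 0.86 and 0.78. The ER body genes NAI1, a bHLH factor, and NAI2, a structural protein of these defence organelles, fell by 0.72 and 0.37 (adjusted p = 0.0157 and 0.0411). NAI2 had 10.6, 10.4 and 10.6 at parabola 10 end, against 10.9, 10.9 and 10.9 at parabola 1 start. PRN, a pirin that binds the G protein alpha subunit, had 9.02, 9.21 and 9.12 at parabola 10 end, against 9.68, 9.83 and 9.88 at parabola 1 start (-0.68, adjusted p = 0.000808), and passed with the tube block.

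The other 10 of the 15 largest falls carry no name besides the locus. They were AT1G45015 (-1.57), AT4G22610 (-1.34), AT3G61750 (-1.24), AT4G11190 (-1.22), AT5G26290 (-1.19), AT4G11210 (-1.18), AT1G66800 (-1.18), AT5G47980 (-1.14), AT4G29930 (-1.11) and AT4G35200 (-1.08). AT4G35200 had 2.16, 2.22 and 2.12 at parabola 10 end, against 2.34, 3.50 and 3.90 at parabola 1 start, so that its earlier arrays were uneven. It did not pass without replicate 3 of parabola 1 start (-0.75, adjusted p = 0.196). AT4G11190 and AT4G11210 are next to each other on chromosome 4.

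Counting genes up to 2 places apart, 13886 neighbour pairs were measured and 733 of them held a call. Over all probe sets 2.7% passed. Whether calls lay side by side more often than that share gives was not tested. Nor was binding of one neighbour's transcripts to the other's probes. Both genes were called in 21 pairs. In 12 pairs both rose and in 8 both fell. The exception was TBL33, which fell, beside DREB2C, which rose. The pairs that rose include AT5G07860, of the acyltransferase family (1.09), with AT5G07870 (1.18), and AT5G08350, with a GRAM domain (1.03), with AT5G08360 (0.49).

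Several lists held no call. None of the 63 plastid-encoded genes passed, and 55 of them had values below 0 (median -0.13). None of the 6 leaf and photosynthesis genes encoded in the nucleus passed (median 0.02). Rubisco activase, RCA, had 4.57, 4.72 and 4.36 at parabola 10 end, against 4.56, 4.73 and 4.59 at parabola 1 start, so the shoot marker overlapped between the stages. PORB, a chlorophyll synthesis enzyme, had a value of -0.67 (adjusted p = 0.201). Likewise 79 defensin-like genes (73 of them dim), 17 ion channels and exchangers, 10 U-box ligases, 9 bHLH genes of the list, 7 cold genes and 5 cell cycle and histone genes were without a call. Of 54 secreted peptide genes 1, RALFL15, rose by 0.74, beside 1.57% rises over all probe sets. PRX52, the only call among the 7 measured genes of the class III peroxidase list, rose by 0.68, beside the same 1.57%. With the tube block neither passed (adjusted p = 0.0707 for RALFL15 and 0.223 for PRX52). Peroxidase, defensin-like, U-box, bHLH and other genes that these lists did not match were not counted, as can happen for genes named only by locus. The bHLH factor NAI1, for example, stood outside the bHLH list and fell. These counts therefore do not describe whole families.

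Levels in level flight, before the first parabola, place both stages of the comparison. Against level flight, 245 probe sets passed at parabola 10 end (1.47%) and 703 at parabola 1 start (4.2%). These comparisons share arrays with the one above, so their values are given side by side. AT4G37030 stood at -0.20 at parabola 10 end (adjusted p = 0.786) and at -2.10 at parabola 1 start (adjusted p = 5.55e-05), each relative to level flight. UGT73B4 stood at -0.33 and -1.51 at the same stages relative to level flight (adjusted p = 0.459 and 8.34e-05), and ASPGB1 at 0.01 and -1.37 (adjusted p = 0.993 and 0.000294). These 3 genes passed against level flight at the earlier stage, where they were lower, and did not pass at the later one.

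The next 7 genes had the opposite layout and passed against level flight at the later stage, not at the earlier one. GI stood at 0.90 at parabola 10 end (adjusted p = 0.00206) and at 0.01 at parabola 1 start (adjusted p = 0.983), each relative to level flight. FDH stood at 0.96 and 0.10, and JRG21 at 1.28 and -0.52, at the same stages. Among the falls, AT5G62360 stood at -1.59 and 0.32, GH9B8 at -0.91 and 0.50, EXPB3 at -1.22 and -0.02 and GH3.17 at -0.92 and 0.15. PPDK (1.05 and -0.59) and AT1G21400 (1.08 and -0.51) lay on either side of level flight, and neither stage passed against it.

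Between the stages compared, single genes took different courses. AT5G62360 averaged 3.35 at the end of parabola 1 and 3.14 at the end of parabola 3, both close to its 2.92 at parabola 10 end. ASPGB1 averaged 5.44 at the end of parabola 1, below the 6.36 of parabola 1 start, and 6.53 at the end of parabola 3. PPDK (3.62) and AT1G21400 (4.61) also had their lowest mean at the end of parabola 1. GI averaged between 4.32 and 4.85 in the 6 tubes other than parabola 10 end. GH9B8 averaged 6.20 at the end of parabola 1 and 5.80 at the end of parabola 3.

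**Figure D5:**
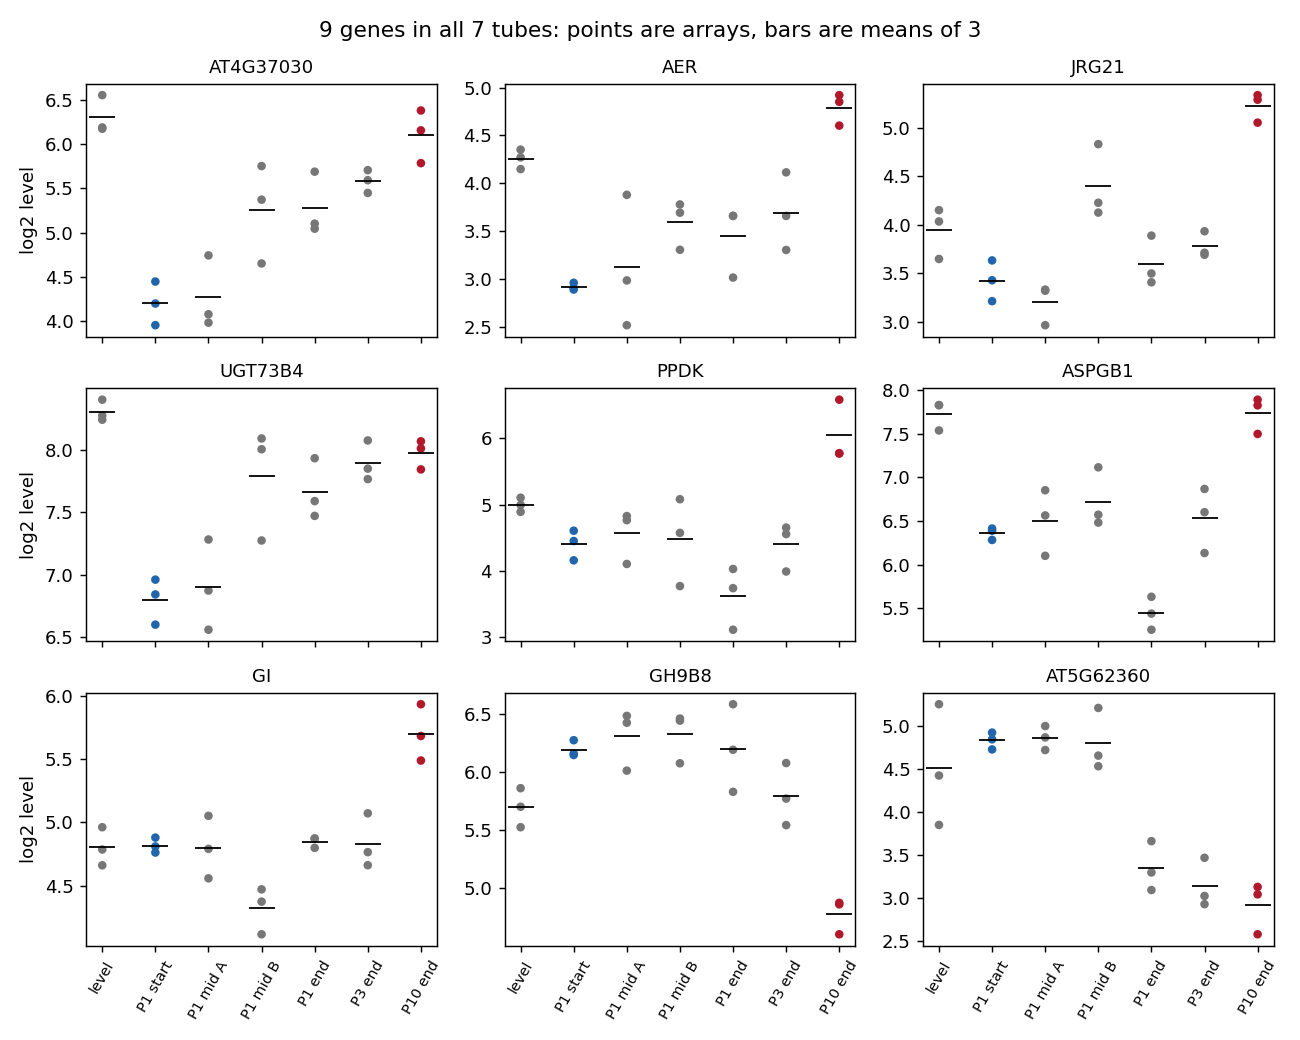
Log2 level (y axis) of 9 genes in the 7 tubes in flight order (x axis), with the midpoint tubes A and B side by side. Points are arrays, horizontal bars are means of 3, red is parabola 10 end and blue parabola 1 start. GI averages 5.70 in the parabola 10 end tube and between 4.32 and 4.85 in the others, while AT4G37030 and UGT73B4 are about as high in level flight as at parabola 10 end.

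Tubes A and B, fixed at the same midpoint, share no array with the comparison and show how far tubes of 1 stage can differ. In the same fit 238 probe sets differed between them (1.42%), 46 higher (0.275%) and 192 lower (1.15%) in tube A. Of the 263 genes that rose at parabola 10 end, 68 were lower in tube A than in tube B and 1 was higher. The 68 are 25.9% of the rises and 35.4% of the genes lower in tube A. The median A minus B difference of the 263 was -0.36, beside 0.01 for all probe sets, and 238 of the 263 lay below 0. Of the 188 that fell, 12 were higher in tube A (6.38% of the falls and 26.1% of the genes higher in tube A) and none was lower, with a median of 0.16.

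By gene, UGT73B4 differed by -0.89 between tube A and tube B (adjusted p = 0.0196), UGT73B2 by -0.76 (adjusted p = 0.0143), JRG21 by -1.19 (adjusted p = 0.00184) and AT4G37030 by -0.99 (adjusted p = 0.0442). PPDK (0.09), AT1G21400 (0.06), MCCB (0.11), AT5G62360 (0.06) and GH9B8 (-0.02) did not pass between the tubes. The end of parabola 1 against level flight is a further pair of tubes with no array in common with the comparison, with 192 probe sets past the threshold (1.15%), 147 of them lower (0.879%). Of the 263 that rose, 47 were lower at the end of parabola 1 than in level flight (17.9% of the rises and 32.0% of the genes lower there), and 1 was higher. For tube A against level flight 864 probe sets passed (5.17%), 594 of them lower (3.55%), and of the 263, 126 were lower in tube A (47.9%, and 21.2% of the genes lower there) and none higher. For tube B against level flight 8 passed (0.0478%), and of the 263, 1 was lower. For the end of parabola 3 against level flight 79 passed (0.472%), and of the 263, 6 were lower and 3 higher. These pairs share tubes with one another, and none shares an array with the comparison. Whether the genes shared by these comparisons follow the stage or the tube was not tested.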

How the data were processed

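Per the submitters' processing notes, the authors made the deposited log2 values with RMA (R package oligo, R 4.0.0, TAIR10). Quantile normalization within RMA hides any change common to all transcripts. Array precision is limited by the number of arrays. The platform annotation names 17481 probe sets, 16722 with 1 gene. Of these, 16574 matched RefSeq (assembly TAIR10.1), which updated symbols and gave neighbours.

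All 17481 were fitted with limma 3.58.1 (lmFit and eBayes, two-sided; R 4.3.3, the package data.table, version 1.17.8) over the means of 7 groups (21 arrays, 14 residual degrees of freedom), without a filter on brightness. Benjamini-Hochberg adjustment covered the 17481, and the threshold was 0.05. Where a gene has several probe sets, lists use the brightest. On simulated data for this comparison (17481 probe sets, 200 changed, 10 runs), 39.4% of changes of 0.5 and 93.2% of changes of 1 were called, and over all sizes 4.65% of calls were false. The simulated data held no differences between tubes, so these shares do not cover them.

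The genes compared, the lists and the naming rule were chosen with earlier results of these data known. The rule names the 15 largest rises and falls without overlap, up to 4 passing members per list, the member with the smallest p of a list without a call, and 9 genes by name. Of 303 loci that lists name by identifier, 77 were measured; the other members came from symbol patterns or, for plastid genes, from the chromosome. The SWEET, GH9, TBL, ALDH, UGT73B, UGT76 and CYP71B families were counted after values had been seen.

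Alternatives were the 6 arrays alone, leaving out each array in turn, array weights, a robust variance trend, cyclic loess, blocks for the replicate number or (as a random effect) the tube, and fits to the probe sets above median brightness, to all probe sets or to single-gene ones. The tube block used a correlation of 0.184 from the mean squares of tubes A and B (ratio 1.68), since duplicateCorrelation gave -0.073. It rests on 1 pair of tubes. Promoter sequences were not used here.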

Additional observations from a re-analysis of the deposited data

How the results depend on the processing

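The 451 calls (263 higher, 188 lower) became 739 (401 and 338) with array weights and 57 (36 and 21) with the tube as a random block. Leaving out 1 array gave 186 to 321 calls in all, 126 to 188 higher and 60 to 133 lower. In these fits the carbon starvation list had 2 to 4 calls, the mitochondrial list 0 to 3, the wall list 2 to 3 and the UDP-glycosyltransferases 5 to 9. With the tube block, they had 0, 0, 0 and 2. The remaining alternatives gave 356 calls with all probe sets, 591 above median brightness, 451 with cyclic loess, 454 with single-gene probe sets only, 509 with a variance trend and 484 with the 6 arrays alone, of which 354 are among the 451. Replicate numbers did not pair the arrays: deviations of same-numbered arrays correlated at 0.005, 0.004 and -0.018, and 0 of 3 correlated best with their own number. With the replicate number as a block 447 passed, 421 of them among the 451. Of 1503 recomputed differences of 101 named genes, 1293 kept their direction and side of the threshold, 201 lost and 7 gained a call. PEX4, a peroxin that the extensin pattern matched by its symbol, had a difference of -0.03, which changed sign to 0.006 and 0.009 without replicates 2 and 3 of parabola 10 end, within a range of -0.105 to 0.009 over the 6 arrays left out. The cause of these changes was not tested, except that leaving out an array leaves fewer samples. Levels below the array median have little signal over background to show a difference.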

Other observations

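In the fit over all 38408 probe sets, 443 of the 20927 probe sets that the annotation leaves unnamed here also passed at parabola 10 end against parabola 1 start, 255 higher and 188 lower. Which transcripts they measure was not analysed. Of the 451 called genes, 11 had more than 1 probe set, and in none of these 11 did all probe sets pass. AT3G54630 was at 1.36 on one probe set and -0.07 on the other, and AT4G38540 at 0.58 on one and 0.04 on the other. AT4G03410 was at 0.45 on the probe set that passed and between -0.34 and -0.33 on its 3 others, which did not. A call on a single probe set of such a gene may therefore not stand for the whole transcript, which was not tested.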
